A study of Arabidopsis thaliana with 18 samples.

Results

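The transcripts described here are the photosynthesis genes of the Arabidopsis thaliana plastid genome, measured in seedlings of the wild type Col and the mutant bru1 before and after a heat treatment that primes them for later heat. A gene was included if it lies on the plastid chromosome, has a probe set that names no other gene, and has a symbol that begins with psa (photosystem I), psb (photosystem II), pet (cytochrome b6f complex), atp (ATP synthase), ndh (NADH dehydrogenase-like complex, NDH) or is rbcL (Rubisco). This rule gave 43 genes of 13286 genes with such a probe set, and of 69 such plastid genes. The reference lists 44 distinct symbols of this kind, and the 1 left out was ndhB, which has 2 copies that share a probe set. By complex the 43 genes were 5 of photosystem I, 15 of photosystem II, 6 of the cytochrome b6f complex, 6 of the ATP synthase, 10 of the NDH complex and rbcL.

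Affymetrix ATH1 arrays were hybridised with total RNA from 18 samples, which the labels describe as 3 biological replicates for each genotype and condition. Seedlings of both genotypes were 4 days old, grew on GM medium with glucose under 16 h of light at 23 °C and 8 h of dark at 21 °C, and the treated ones were heated 6 h after dawn, first to 37 °C (1 h) and, after a pause at 23 °C (1.5 h), to 44 °C (45 min). The 6 groups are Col control, Col 4 h and Col 52 h after this acclimation, and bru1 control, bru1 4 h and bru1 52 h. The controls of both genotypes were untreated seedlings that the labels match to the 4 h time point, so the 52 h seedlings were older than their controls and age cannot be told apart from time after heat. The bru1 allele is not given in the labels used here. In the sample titles all Col arrays are numbered before all bru1 arrays, so that order cannot be told apart from genotype. Values are the authors' log2 expression values, and a difference of 1 on this scale is a 2-fold difference. Whole seedlings were used, so fewer cells with plastids and less plastid RNA per cell cannot be told apart.

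The plastid genome encodes part of each complex of the photosynthetic electron transport chain, and the nucleus encodes the rest. Photosystem II splits water, the cytochrome b6f complex passes the electrons on, photosystem I lifts them to ferredoxin, and the ATP synthase uses the proton gradient they build, while the NDH complex returns electrons to the plastoquinone pool and Rubisco fixes carbon dioxide. Many plastid genes are transcribed together as long precursors that are then cut and trimmed into messages of different stability, by a plastid-encoded polymerase (rpo genes) and a nucleus-encoded one. Mature plastid messages mostly carry no stable poly(A) tail.

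One array stood apart from its group in these genes, and the genes and counts that rest most on it are given with and without it. In Col 4 h replicate 2, 12 of the 43 genes were at least 2-fold below both other Col 4 h arrays, namely psaA, psaC, psbA, psbB, psbD, psbN, psbT, petD, petG, atpH, ndhG and rbcL. Over all 22746 probe sets tested, 27 were that far below both others on this array and 68 that far above both. No nuclear photosynthesis gene of 21 and no mitochondrial gene of 16 was that far below, against 2 of 19 plastid genes for ribosomal proteins and RNA polymerase. The array's mean correlation with its group mates was 0.963 over the 43 genes, where other arrays had 0.976 to 0.996, and 0.992 over all probe sets, inside the range of 0.986 to 0.996 of all 18 arrays. Over all probe sets Col 52 h replicate 3 stood furthest apart, with 123 at least 2-fold below both group mates, 100 above, and a mean correlation of 0.986. None of the 43 genes was that far apart on it. Leaving out each array in turn was planned, but Col 4 h replicate 2 was singled out after its values had been seen. Levels of different probe sets cannot be compared with one another. ndhF lay between 3.24 and 3.94 on the 18 arrays, under the lower quartile of whole arrays (4.39 at the highest), so these data do not place it above background, and petD and petG were near that value in several groups.

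The 25S ribosomal RNA, which has no poly(A) tail and is read by a control probe set, had a higher level in the heated groups. Its level was 11.50 ± 0.20 (SD, n = 3) in Col control and 12.82 ± 0.40 at 4 h, with 12.87, 13.19 and 12.40 on replicates 1, 2 and 3. In bru1 it was 11.13 ± 0.34 in the control and 13.25 ± 0.01 at 4 h, and at 52 h it was 12.27 ± 0.19 in Col and 12.18 ± 0.12 in bru1. The exact permutation test gave p = 0.1 for each of the 4 differences from the control and for bru1 against Col at 4 h, the smallest value that 3 against 3 arrays allow. The difference between 3' and 5' probe sets of actin, a sign of RNA integrity and labelling length, went from 2.73 ± 0.06 to 3.27 ± 0.15 in Col and from 3.03 ± 0.06 to 3.51 ± 0.07 in bru1 at 4 h (exact permutation p = 0.1 for both). That of GAPDH went from 0.41 ± 0.05 to 0.62 ± 0.09 in Col at 4 h (exact permutation p = 0.1). In bru1 it went from 0.67 ± 0.10 to 0.60 ± 0.03 (exact permutation p = 0.3). The median level of the mitochondrial genes was 4.77 in Col control, 9.09 at 4 h and 6.30 at 52 h, and 4.83, 9.43 and 6.11 in bru1. The part of labelling or RNA quality in the results below was not tested.

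At 4 h after the heat treatment the plastid photosynthesis genes of Col moved in both directions. Of 43 genes, 8 rose and 10 fell (limma, adjusted p under 0.05), where 36.4 percent of all probe sets were called, 18.2 percent higher and 18.2 percent lower. The share called among the 43 genes, 41.9 percent, was thus near that of all probe sets, which also moved in both directions. The genes that rose were psaA, psaC, psbA, psbB, psbD, petD, ndhG and rbcL, and those that fell included atpA and psbZ. The median change of the 43 genes was -0.00085, beside 0.00049 for all probe sets. In bru1 no gene rose and 18 fell, where 39.4 percent of all probe sets were called, 19.9 percent higher and 19.5 percent lower. The share called in bru1 was also 41.9 percent, near that of all probe sets, but its calls were all lower. The median change in bru1 was -0.50, beside 0.0088 for all probe sets. Without Col 4 h replicate 2, 11 genes rose and 7 fell in Col, where 32.3 percent of all probe sets were called, and 15 genes were called both ways. The genes called higher only in that fit were atpH, petG (1.13 ± 0.31) and psbT (1.59 ± 0.27), and those called lower only with all arrays were atpE, ndhD and ndhH. When any 1 array was left out, 11 of the 18 Col calls and 16 of the 18 bru1 calls held in every fit. The bru1 calls that did not were those of psbC and ndhH.

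**Figure D1:**
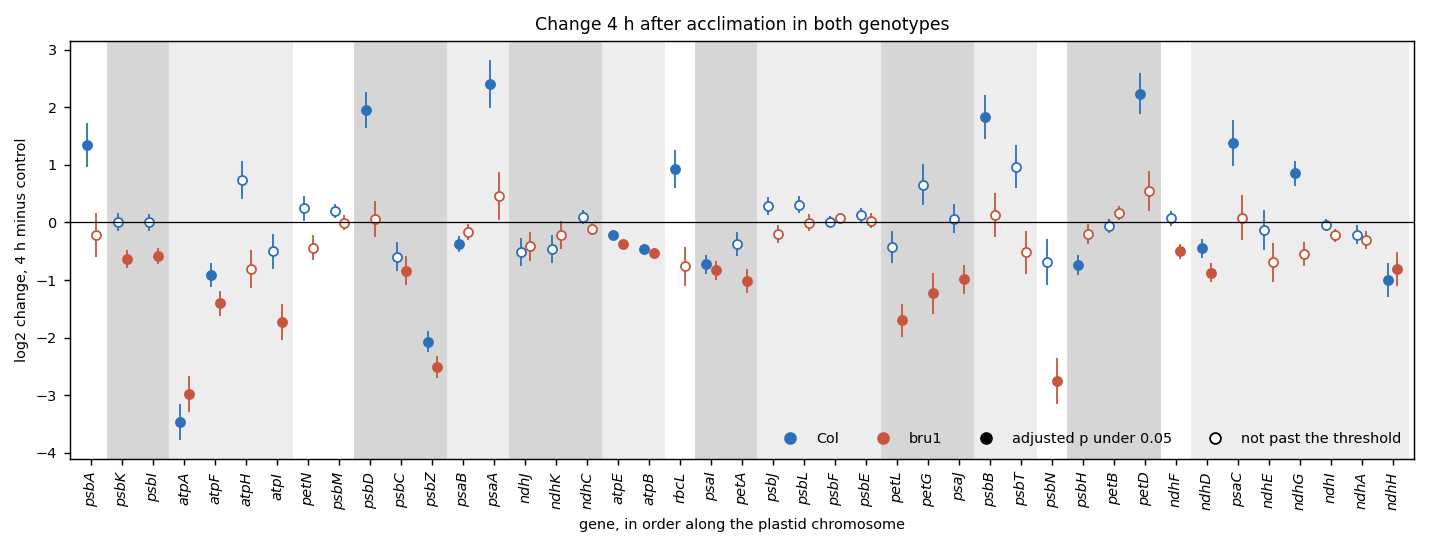
Log2 change at 4 h against the untreated control (vertical axis, ± SE from limma) for the 43 genes in their order along the plastid chromosome, in Col (blue) and bru1 (red). Filled points passed the adjusted p threshold of 0.05, and grey bands mark neighbouring genes listed here as transcribed together. In Col psaA (2.403), petD (2.24) and psbD (1.95) lie highest and atpA (-3.47) lowest, and no filled bru1 point lies above 0.

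In photosystem I, the reaction centre gene psaA and the iron-sulphur subunit gene psaC rose in Col at 4 h, the second reaction centre gene psaB and the small subunit gene psaI fell, and psaJ did not pass the test. psaA was at 6.49, 6.41 and 6.82 in Col control and at 9.67, 7.39 and 9.86 at 4 h. All 3 treated arrays were above all controls, and replicate 2 was more than 2-fold below the others. The rise was 2.403 ± 0.42 (SE, adjusted p = 2.2e-04), and 3.20 ± 0.21 without replicate 2. In bru1 psaA was at 6.61, 6.16 and 6.40 in the control and at 6.67, 7.36 and 6.53 at 4 h, so the groups overlapped, and the change of 0.46 ± 0.42 did not pass the test. psaC rose by 1.37 ± 0.40 in Col (adjusted p = 0.011), or 2.08 ± 0.24 without replicate 2, where replicate 2 at 6.20 lay among the controls of 5.82 to 6.48 and the other arrays were at 8.34 and 8.28. This call was lost without Col control replicate 3 (adjusted p = 0.056), without Col 4 h replicate 1 (0.074) and without Col 4 h replicate 3 (0.070), and psaC changed by 0.085 in bru1. psaB fell by 0.37 ± 0.14 in Col (adjusted p = 0.048), a call lost without Col 4 h replicate 1 (adjusted p = 0.26) and without any 1 of the 3 controls. psaI fell in both genotypes, by 0.73 ± 0.17 in Col and 0.83 ± 0.17 in bru1.
psaJ, a small membrane subunit, had the largest change of photosystem I in bru1. It was at 11.57, 11.72 and 11.34 in bru1 control and at 10.32, 11.25 and 10.11 at 4 h, every treated array below every control. The fall was 0.99 ± 0.25 (adjusted p = 0.0041), while psaJ changed by 0.063 in Col.

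In photosystem II, 3 of 15 genes rose and 2 fell in Col at 4 h, and 5 fell in bru1. The share called was 33.3 percent in each genotype, where 36.4 percent of all probe sets were called in Col and 39.4 percent in bru1. psbA, which encodes the reaction centre protein D1, was at 9.57, 9.70 and 9.45 in Col control and at 11.72, 9.51 and 11.52 at 4 h. Replicate 2 lay among the controls and the other treated arrays lay at least 3-fold above them. The rise was 1.35 ± 0.38 (adjusted p = 0.0096), or 2.05 ± 0.21 without replicate 2, and it missed the threshold without replicate 1 (adjusted p = 0.070) or replicate 3 (0.060). psbA was at 9.62, 10.36 and 9.69 in bru1 control and at 9.64, 9.98 and 9.38 at 4 h, overlapping, with a change of -0.22. psbD, for the second reaction centre protein D2, was at 8.34, 8.48 and 8.30 in Col control and at 10.82, 9.23 and 10.93 at 4 h, with no overlap. It rose by 1.95 ± 0.31 (adjusted p = 8.8e-05), or 2.5006 ± 0.20 without replicate 2, while in bru1 it was at 8.30, 7.92 and 8.48 in the control, at 8.19, 8.58 and 8.11 at 4 h, and changed by 0.060.
psbB encodes the inner antenna protein CP47. It was at 7.01, 6.84 and 7.13 in Col control and at 9.39, 7.56 and 9.51 at 4 h, with no overlap, a rise of 1.83 ± 0.38 (adjusted p = 9.5e-04), or 2.46 ± 0.26 without replicate 2. In bru1 it was at 7.02, 6.76 and 7.20 in the control and at 7.03, 7.65 and 6.69 at 4 h, a change of 0.13 that did not pass the test.

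The small photosystem II subunit gene psbZ fell in both genotypes. It was at 11.39, 11.31 and 11.37 in Col control and at 9.52, 8.99 and 9.34 at 4 h. In bru1 it was at 11.55, 11.42 and 11.38 in the control and at 8.50, 8.89 and 9.43 at 4 h. Every treated array was thus at least 3-fold below every control of its genotype, and psbZ fell by 2.07 ± 0.18 in Col (adjusted p = 1.1e-07) and fell by 2.51 ± 0.18 in bru1 (adjusted p = 1.0e-08). psbN, which encodes an assembly factor of photosystem II and is transcribed from the strand opposite to its neighbours, fell in bru1 by 2.75 ± 0.40 (adjusted p = 2.9e-05). It was at 7.80, 8.10 and 8.32 in bru1 control and at 5.31, 5.41 and 5.27 at 4 h, without overlap. In Col it was at 6.08, 6.07 and 6.80 in the control and at 6.28, 4.33 and 6.28 at 4 h, where replicate 2 alone lay below the controls, and the change of -0.69 did not pass the test. psbC, for the second inner antenna protein CP43, fell by 0.83 ± 0.25 in bru1 (adjusted p = 0.013) and changed by -0.60 in Col. Its bru1 call did not hold in every fit that left out 1 array. The small subunit genes psbK and psbI fell in bru1, by 0.63 ± 0.16 and 0.59 ± 0.14, and changed by 0.0042 and -0.00085 in Col. These bru1 falls started from controls that were 0.53 and 0.58 above those of Col. At 4 h bru1 minus Col was -0.11 for psbK and -0.0027 for psbI, neither called. The cytochrome b559 genes psbE and psbF and their neighbours psbL and psbJ were not called in either genotype, with changes from 0.015 to 0.31 in Col and from -0.20 to 0.071 in bru1.

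In the cytochrome b6f complex, 1 gene of 6 was called in Col at 4 h, or 16.7 percent, where 36.4 percent of all probe sets were called. This gene was petD, which encodes subunit IV. It was at 4.32, 4.43 and 4.22 in the control and at 7.11, 5.22 and 7.35 at 4 h, without overlap, a rise of 2.24 ± 0.35 (adjusted p = 7.5e-05). Without replicate 2 the rise was 2.91 ± 0.17. In bru1 petD was at 4.44, 4.55 and 4.25 in the control and at 4.93, 5.11 and 4.84 at 4 h, which did not overlap, but the change of 0.55 ± 0.35 did not pass the test. Its control values lay near the lower quartile of the arrays, where a change can be understated. petA, for cytochrome f, was at 10.06, 10.39 and 10.66 in Col control and at 10.12, 10.04 and 9.83 at 4 h. These groups overlapped, with a change of -0.37, whereas in bru1 petA was at 11.48, 11.46 and 11.64 in the control and at 10.28, 10.98 and 10.28 at 4 h. The fall in bru1 was 1.01 ± 0.21 (adjusted p = 0.0010). The small subunit gene petL was at 7.89, 8.20 and 7.83 in bru1 control and at 5.96, 6.96 and 5.89 at 4 h, a fall of 1.70 ± 0.28 (adjusted p = 1.1e-04) with no overlap. In Col petL was at 8.00, 7.42 and 7.11 in the control and at 7.74, 6.72 and 6.80 at 4 h, overlapping, with a change of -0.42. petG, another small subunit gene, fell by 1.23 ± 0.36 in bru1 to values near the lower quartile. petB, for cytochrome b6, changed by -0.063 in Col and 0.16 in bru1.

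In the ATP synthase, 4 of 6 genes fell in Col at 4 h and 5 fell in bru1, and none rose in either genotype. The shares called were 66.7 and 83.3 percent, where 36.4 percent of all probe sets were called in Col and 39.4 percent in bru1. atpA, which encodes the alpha subunit of the catalytic head, had the largest change of all 43 genes. It was at 11.17, 11.31 and 10.83 in Col control and at 7.61, 7.35 and 7.94 at 4 h, and in bru1 at 11.05, 10.75 and 10.96 in the control and at 7.55, 7.26 and 9.00 at 4 h. No treated array reached a control, though bru1 replicate 3 fell less far than the others. atpA fell by 3.47 ± 0.31 in Col (adjusted p = 1.2e-07) and fell by 2.98 ± 0.31 in bru1 (adjusted p = 7.1e-07). The beta subunit gene atpB was at 13.90, 13.85 and 13.85 in Col control and at 13.52, 13.32 and 13.38 at 4 h. In bru1 it was at 13.98, 13.86 and 13.99 in the control and at 13.32, 13.49 and 13.42 at 4 h. Neither pair of groups overlapped, and atpB fell by 0.46 ± 0.085 in Col (adjusted p = 3.6e-04) and by 0.53 ± 0.085 in bru1 (adjusted p = 8.3e-05). The stalk gene atpF fell by 0.92 ± 0.21 in Col and fell by 1.41 ± 0.21 in bru1, and the epsilon subunit gene atpE fell by 0.23 in Col and fell by 0.38 in bru1. The Col call of atpE was lost without Col 4 h replicate 2 (change -0.16, adjusted p = 0.19), without Col 4 h replicate 3 (0.085) and without any 1 of the 3 controls (0.080 to 0.096). The membrane subunit gene atpI fell in bru1, by 1.73 ± 0.31, with a change of -0.50 in Col. Its bru1 controls were 1.27 above those of Col, and at 4 h bru1 minus Col was 0.038, not called. The ring subunit gene atpH was called in neither, with 0.73 in Col and -0.81 in bru1, and without Col 4 h replicate 2 it rose by 1.303 ± 0.22 in Col.

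In the NDH complex, 1 of 10 genes rose and 2 fell in Col at 4 h, and 3 fell in bru1. The share called was 30 percent in each genotype, where 36.4 percent of all probe sets were called in Col and 39.4 percent in bru1. ndhG, for a membrane subunit, was at 6.22, 6.04 and 5.99 in Col control and at 7.38, 6.20 and 7.22 at 4 h, where replicate 2 lay among the controls. It rose by 0.85 ± 0.21 (adjusted p = 0.0042), or 1.22 ± 0.14 without replicate 2, and changed by -0.55 in bru1. ndhH, for a subunit of the peripheral arm, was at 6.97, 6.28 and 6.91 in Col control and at 5.93, 5.36 and 5.86 at 4 h. It fell by 1.00 ± 0.30 in Col (adjusted p = 0.013), a call lost without Col 4 h replicate 2 (adjusted p = 0.065), without Col control replicate 1 (0.059) or without Col control replicate 3 (0.051). In bru1 ndhH was at 6.89, 5.43 and 6.84 in the control, with replicate 2 far below, and at 5.39, 5.82 and 5.51 at 4 h, a fall of 0.81 ± 0.30 (adjusted p = 0.038). These groups overlapped, and the bru1 call of ndhH did not hold in every fit that left out 1 array. ndhD, for another membrane subunit, was at 9.32, 9.32 and 8.94 in bru1 control and at 8.14, 8.42 and 8.41 at 4 h, a fall of 0.87 ± 0.16 (adjusted p = 3.7e-04). In Col it was at 9.21, 9.16 and 9.00 in the control and at 8.88, 8.70 and 8.45 at 4 h, a fall of 0.45 ± 0.16 (adjusted p = 0.040). This call was lost without Col 4 h replicate 2 (adjusted p = 0.074) or replicate 3 (0.17) and without Col control replicate 1 (0.12) or replicate 2 (0.098). ndhF was among the 3 called lower in bru1, from 3.94, 3.52 and 3.93 to 3.33, 3.30 and 3.24, but these values are not shown to be above background. Its Col values were 3.57, 3.77 and 3.46 in the control and 3.70, 3.46 and 3.85 at 4 h, which overlapped.

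rbcL, which encodes the large subunit of Rubisco, was at 11.13, 11.09 and 10.64 in Col control and at 12.37, 10.70 and 12.58 at 4 h. Replicates 1 and 3 were above all controls and replicate 2 lay among them. The rise was 0.93 ± 0.33 (adjusted p = 0.036) with all arrays and 1.52 ± 0.21 without replicate 2. The call was lost without any 1 of the other 5 arrays of the comparison, with an adjusted p from 0.054 to 0.21. In bru1 rbcL was at 10.89, 11.07 and 11.09 in the control and at 10.16, 10.53 and 10.08 at 4 h, without overlap, and its change of -0.76 ± 0.33 did not pass the test.

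**Figure D2:**
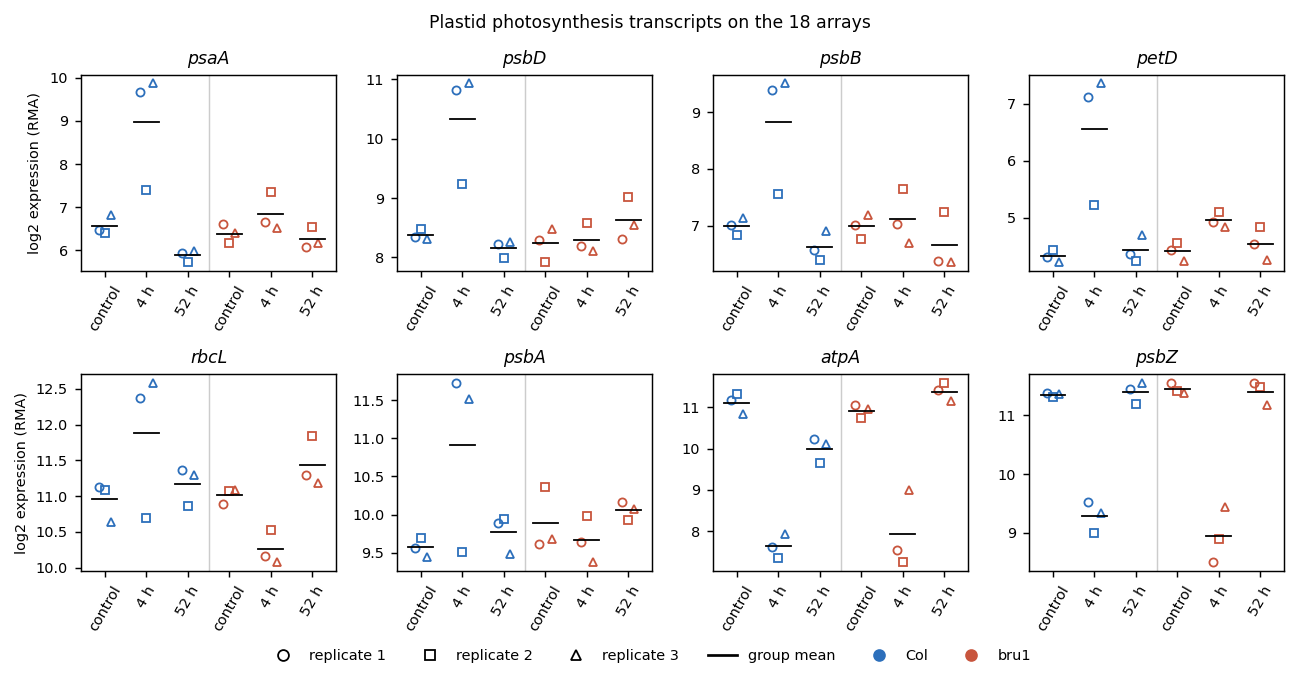
Log2 level (vertical axis) of 8 plastid genes on the 18 arrays, by group, with Col in blue, bru1 in red, a marker shape for each replicate number and a line at each group mean. At 4 h the psaA, psbA, psbB, psbD, petD and rbcL values of Col replicate 2 (psaA 7.39) lie below those of replicates 1 and 3 (9.67 and 9.86), while atpA and psbZ are low on all treated arrays at 4 h.

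Genes listed here as transcribed together spanned wide ranges of change in some units and narrow ones in others. The listed unit psbD, psbC and psbZ held changes from -2.07 to 1.95 in Col at 4 h and from -2.51 to 0.060 in bru1. The unit rps2, atpI, atpH, atpF and atpA, in which rps2 encodes a ribosomal protein, spanned -3.47 to 0.73 in Col and -2.98 to -0.81 in bru1. In the unit that runs from psbB to petD, psbB and petD rose in Col while psbH, for a small photosystem II subunit, fell by 0.74 ± 0.18, with a range of 2.98 between its 5 genes in Col and 1.07 in bru1. psaC lies within a unit of ndh genes, where the changes ran from that of ndhH, the lowest, to 1.37 for psaC in Col. The units atpB with atpE and psbK with psbI had ranges of 0.23 and 0.0050 in Col and 0.15 and 0.048 in bru1. Probe sets of different genes differ in sensitivity and position, and a unit range was not tested.

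At 4 h the bru1 change lay below the Col change in 35 of 43 genes, and in 49.1 percent of all probe sets. Such a change can reflect a higher bru1 control as well as a lower bru1 level at 4 h. The genes psbN, atpI, petA, psbI and psbK were higher in the bru1 controls and not called between genotypes at 4 h with all arrays. Of these, psbN was called lower in bru1 at 4 h when Col 4 h replicate 2 was left out. In the interaction test, which asks whether the change at 4 h differs between genotypes, none of the 43 genes passed with all arrays, where 0.343 percent of all probe sets were called, 0.176 percent higher and 0.167 percent lower, and 22 had an unadjusted p under 0.05, 21 of them lower in bru1 (limma). Of all probe sets 13 percent had such a p, 6.4 percent lower in bru1. The lowest adjusted p was that of ndhG (interaction -1.397 ± 0.30, adjusted p = 0.058), followed by psbD (-1.89 ± 0.44, adjusted p = 0.082). The median interaction was -0.49, beside 0.0057 for all probe sets. Without Col 4 h replicate 2, 12 genes passed, all lower in bru1, where 1.32 percent of all probe sets were called. These 12 are the genes by which that array stood apart, so which of them pass rests on it. Their interactions then ran from -1.76 ± 0.19 for ndhG to -2.74 ± 0.29 for psaA (adjusted p = 2.5e-04), with -2.36 ± 0.22 for petD and -2.71 ± 0.38 for psbN. Without bru1 4 h replicate 2, 4 genes passed, where 1.78 percent of all probe sets were called.

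Genes are not independent replicates, so the following is given without a test. The 4 h changes of Col and bru1 had a Pearson correlation of 0.708 over the 43 genes and 0.887 over all probe sets. With Col replicate 2 alone in place of the Col mean it was 0.877, and with replicates 1 and 3 it was 0.607. Lower in both genotypes were 8 genes, namely atpA, atpB, atpE, atpF, ndhD, ndhH, psaI and psbZ, which are 80 percent of the 10 Col calls and 44.4 percent of the 18 bru1 calls. Of these, atpE, ndhD and ndhH were not called in Col without replicate 2, and the bru1 call of ndhH did not hold in every fit that left out 1 array. Over all probe sets 18.2 percent were called lower in Col and 19.5 percent in bru1. The share called lower in both was not computed, so the 8 genes cannot be set against it.

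**Figure D3:**
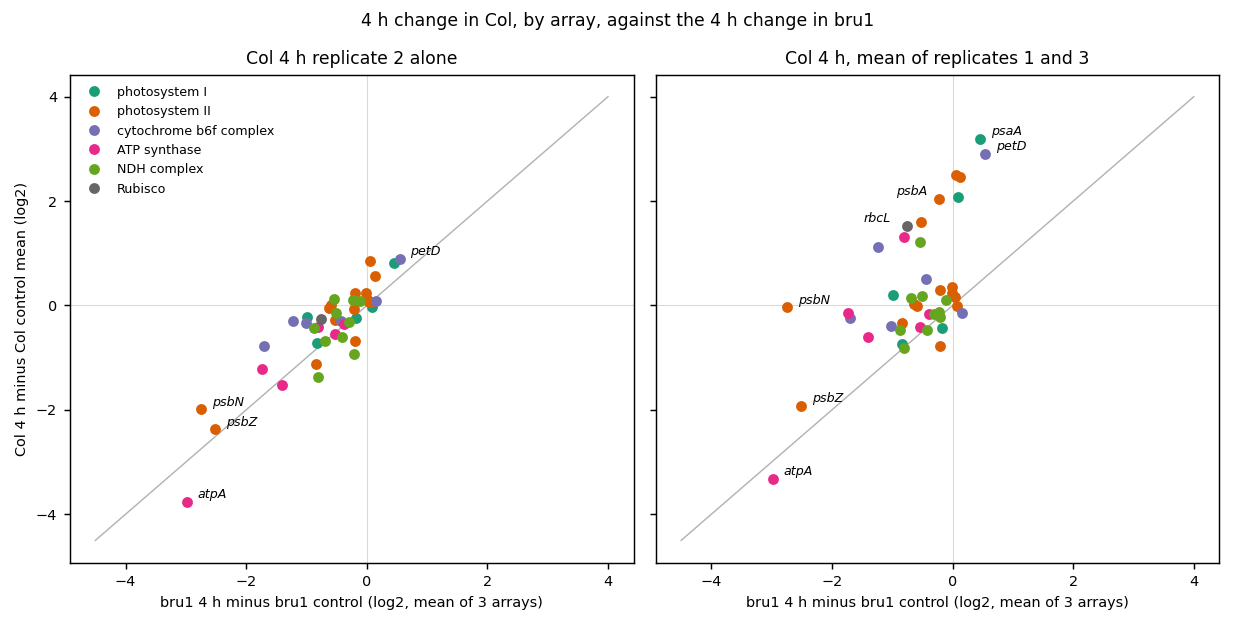
Log2 change of each of the 43 genes at 4 h in Col (vertical axis) against that in bru1 (horizontal axis), coloured by complex, with Col replicate 2 alone on the left and the mean of Col replicates 1 and 3 on the right, and a grey line where both are equal. On the left the Pearson correlation is 0.877, and on the right, at 0.607, psaA, petD, psbA and rbcL lie above the line while atpA and psbZ are low on both axes.

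Directly compared at 4 h, bru1 was lower than Col in 11 of the 43 genes and higher in psaB, where 13.4 percent of all probe sets were called, 6.45 percent higher and 6.96 percent lower. The lower genes were psaA, psaC, psaJ, psbA, psbB, psbD, psbT, petD, atpH, ndhG and rbcL, and 10 of them were at least 2-fold lower, where 2.37 percent of all probe sets were called and differed by at least 2-fold in either direction. psaA was 2.12 ± 0.42 lower on the log2 scale (difference -2.12, adjusted p = 0.0026), at 6.53 to 7.36 in bru1 against 7.39 to 9.86 in Col, without overlap. psbD differed by -2.03 ± 0.31 (adjusted p = 2.9e-04) and rbcL by -1.63 ± 0.33 (adjusted p = 0.0032), both without overlap. Without Col 4 h replicate 2 the differences were -2.92 ± 0.21 for psaA, -2.58 ± 0.20 for psbD and -2.22 ± 0.21 for rbcL. psaB, at 12.59, 12.61 and 12.39 in bru1 and 11.74, 12.16 and 12.19 in Col, was higher in bru1 by 0.50 ± 0.14 (adjusted p = 0.025). The median difference was -0.15, beside -0.023 for all probe sets. The count rested on single arrays. It was 18 genes without Col 4 h replicate 2 (17 lower, where 14.6 percent of all probe sets were called, median -0.33), 6 without Col 4 h replicate 1, 7 without Col 4 h replicate 3 and 6 without bru1 4 h replicate 1, where 7.54, 8.03 and 8.63 percent of all probe sets were called, and 6 of the 12 calls held in every such fit. The calls lost in some of these fits were psbA, atpH, psaB, psaJ, psbT and psaC. With only the 2 groups compared in the fit, 5 genes were called, all lower in bru1, where 11.2 percent of all probe sets were called. The 25S ribosomal RNA control was 0.44 higher in bru1 than in Col at 4 h. For the 3' minus 5' differences, bru1 minus Col at 4 h was 0.23 for actin (exact permutation p = 0.1) and -0.023 for GAPDH (exact permutation p = 0.8). The part of these controls in the differences between the genotypes was not tested.

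At 52 h few of the genes passed the test against the untreated controls. In Col no gene was called higher and 4 were called lower, where 14.8 percent of all probe sets were called, 6.93 percent higher and 7.84 percent lower, and the median change was -0.13, beside -0.018 for all probe sets. Leaving out 1 array moved this median between -0.19 (without Col 52 h replicate 1) and -0.050 (without Col 52 h replicate 2). atpA was at 10.22, 9.65 and 10.12, still below all Col controls, and fell by 1.1035 ± 0.31 (adjusted p = 0.022). ndhK, for a peripheral arm subunit of NDH, was at 9.02, 9.06 and 8.55 in Col control and at 8.08, 8.19 and 7.78 at 52 h, a fall of 0.86 ± 0.24 (adjusted p = 0.022) without overlap. psbH fell by 0.63 ± 0.18 and ndhD by 0.50 ± 0.16. None of these 4 calls held in every fit that left out 1 array. The count was 0 without Col control replicate 1, 1 without Col control replicate 2, 2 without Col 52 h replicate 2 and 1 without Col 52 h replicate 3. Of all probe sets 10.5, 11, 16.8 and 11.2 percent were called in these fits, in the same order. The actin 3' minus 5' difference was 3.17 ± 0.28 in Col at 52 h against 2.73 ± 0.06 in the control (exact permutation p = 0.1). That of GAPDH was 0.48 ± 0.06 against 0.41 ± 0.05 (exact permutation p = 0.1). Their part in the falls in Col at 52 h was not tested. The largest changes of the other complexes at 52 h in Col were those of psaA (5.94, 5.73 and 6.00, a change of -0.68 ± 0.42), psbN (7.02, 7.06 and 7.29, a change of 0.81 ± 0.40), petA (11.02, 10.61 and 10.90, a change of 0.47 ± 0.21) and rbcL (11.36, 10.86 and 11.30, a change of 0.22 ± 0.33), none past the threshold. psbN lay above all its controls and psaA below all of its own.

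The 52 h values of the other genes followed through the groups overlapped or lay close to the controls in most cases. In Col psbA was at 9.89, 9.95 and 9.49, psbB at 6.57, 6.40 and 6.90 and psbD at 8.23, 7.99 and 8.26. psbA and psbB overlapped their controls, whereas psbD lay below all of its own. In Col petD was at 4.37, 4.23 and 4.70, atpB at 13.89, 13.80 and 13.88, and psbZ at 11.45, 11.20 and 11.55. These overlapped the controls. ndhF in Col was at 3.32, 3.58 and 3.57. In bru1 psaA was at 6.08, 6.55 and 6.18, psbA at 10.17, 9.93 and 10.07, and psbB at 6.37, 7.25 and 6.36. All of these overlapped the bru1 controls. petA was at 10.82, 11.52 and 10.69 in bru1, atpB at 13.97, 13.88 and 13.94, and ndhF at 3.54, 3.38 and 3.67, which overlapped their controls too. In bru1 atpA was at 11.42, 11.58 and 11.14, above all of its controls, but the change of 0.46 ± 0.31 did not pass the test.

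In bru1 at 52 h only petL was called, and it was lower, where 7.24 percent of all probe sets were called, 3.05 percent higher and 4.19 percent lower. It was at 6.97, 7.08 and 6.98, below all bru1 controls, a fall of 0.96 ± 0.28 (adjusted p = 0.045) that was lost without any 1 of the 6 arrays compared, with adjusted p from 0.077 to 0.17. The median change was -0.044, beside 0.011 for all probe sets. The largest changes of the other complexes were those of psbN (6.59, 7.86 and 6.77, a change of -0.9996 ± 0.40), atpI (5.53, 6.46 and 5.42, a change of -0.97 ± 0.31) and ndhE (6.93, 6.78 and 6.55, a change of -0.96 ± 0.34), none past the threshold. psaJ (11.12, 11.02 and 11.22) changed by -0.42 ± 0.25 and rbcL (11.29, 11.84 and 11.19) by 0.42 ± 0.33. The 25S ribosomal RNA control remained above its untreated level in both genotypes at this time, and the actin 3' minus 5' difference in bru1 was 3.01 ± 0.08 against 3.03 ± 0.06 (exact permutation p = 0.6). That of GAPDH in bru1 was 0.70 ± 0.05 against 0.67 ± 0.10 (exact permutation p = 0.7).

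Between 4 h and 52 h genes moved in both directions in Col and upward in bru1. In Col 8 genes fell and 5 rose, where 31.8 percent of all probe sets were called, 14.9 percent higher and 16.9 percent lower. The share called among the 43 genes in Col, 30.2 percent, was near that of all probe sets. The changes of those that fell included -3.08 ± 0.42 for psaA, -2.19 ± 0.38 for psbB, -2.17 ± 0.31 for psbD and -2.13 ± 0.35 for petD, while atpA rose by 2.37 ± 0.31 and psbZ by 2.12 ± 0.18. In bru1 16 genes rose and none fell, where 38.4 percent of all probe sets were called, 18.3 percent higher and 20.1 percent lower. The share called in bru1, 37.2 percent, was also near that of all probe sets, but its calls were all higher. There atpA rose by 3.44 ± 0.31, psbZ by 2.46 ± 0.18, psbN by 1.75 ± 0.40 and rbcL by 1.19 ± 0.33. The genes atpA, atpB, psbN and psbZ rose in both, which are 80 percent of the 5 Col calls and 25 percent of the 16 bru1 calls. The share of all probe sets called higher in both was not computed. Without Col 4 h replicate 2, 11 genes fell and 5 rose in Col, where 27.3 percent of all probe sets were called. The changes were then -3.88 ± 0.21 for psaA, -2.82 ± 0.26 for psbB, -2.72 ± 0.20 for psbD and -2.797 ± 0.17 for petD, and psbN, which rose by 1.49 ± 0.40 with all arrays, rose by 0.84 ± 0.29.

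The change from 4 h to 52 h differed between the genotypes for psbD and ndhG, both higher in bru1, where 0.576 percent of all probe sets were called, 0.202 percent higher and 0.374 percent lower. Both had risen in Col at 4 h, while in bru1 neither was called at 4 h against the control (changes 0.060 and -0.55). psbD fell in Col by 2.17 between 4 h and 52 h and changed by 0.33 in bru1, an interaction of 2.50 ± 0.44 (adjusted p = 0.010). Its values at 52 h were 8.23, 7.99 and 8.26 in Col and 8.31, 9.02 and 8.54 in bru1. The interaction of ndhG was 1.73 ± 0.30 (adjusted p = 0.0096), with 5.65, 5.56 and 5.47 in Col and 6.20, 6.21 and 6.24 in bru1 at 52 h. Between 4 h and 52 h ndhG changed by -1.38 in Col and by 0.35 in bru1. Both held in every fit that left out 1 array, but neither passed with only the 4 groups compared in the fit (adjusted p = 0.079 for psbD and 0.072 for ndhG). The count was 13 without Col 4 h replicate 2, where 1.8 percent of all probe sets were called, and 5 without bru1 4 h replicate 2 or without bru1 4 h replicate 3, where 2.19 and 0.325 percent were called. In the interaction of the 52 h change with genotype no gene was called, where 0.119 percent of all probe sets were called, 0.0176 percent higher and 0.101 percent lower, and 8 had an unadjusted p under 0.05, 5 higher in bru1 and 3 lower (limma), where 9.14 percent of all probe sets had such a p, 4.62 percent higher and 4.52 percent lower.

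In untreated seedlings 5 genes were higher in bru1 than in Col and none was lower, where 10.3 percent of all probe sets were called, 5.24 percent higher and 5.1 percent lower. They were psbN (1.76 ± 0.40, adjusted p = 0.0082), atpI (1.27 ± 0.31), petA (1.16 ± 0.21, adjusted p = 0.0019), psbI (0.58 ± 0.14) and psbK (0.53 ± 0.16), and in none of the 5 did a bru1 control reach down to a Col control. The median difference was 0.16, beside -0.036 for all probe sets. The calls of psbN and petA held in every fit that left out 1 array. atpI was lost without Col control replicate 2 or bru1 control replicate 3 (adjusted p = 0.0669 and 0.0666), and the count was 3 in each of these fits. In them 6.57 and 6.88 percent of all probe sets were called. psbK was lost without Col control replicate 1 (adjusted p = 0.15) or replicate 2 (0.092) and without bru1 control replicate 2 (0.10) or replicate 3 (0.12). psbI was lost without Col control replicate 1 (0.055) or bru1 control replicate 1 (0.057). All 5 genes were also called lower in bru1 at 4 h against these higher controls. None of the 5 was called between genotypes at 4 h with all arrays. There bru1 minus Col was -0.30 for psbN, 0.038 for atpI, 0.52 for petA, -0.0027 for psbI and -0.11 for psbK. The psbN value rests on Col 4 h replicate 2, at 4.33 where replicates 1 and 3 were at 6.28. When that array was left out, psbN was called lower in bru1 at 4 h, while atpI, petA, psbI and psbK were not called. Untreated bru1 also had a GAPDH 3' minus 5' difference of 0.67 ± 0.10 against 0.41 ± 0.05 in Col (exact permutation p = 0.1). That of actin was 3.03 ± 0.06 against 2.73 ± 0.06 (exact permutation p = 0.1). Their part in the differences between untreated genotypes was not tested.

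At 52 h 5 genes were higher in bru1 than in Col and none lower, where 11.5 percent of all probe sets were called, 5.84 percent higher and 5.66 percent lower. They included the adjacent NDH genes ndhJ and ndhK, with ndhJ at 9.93, 10.00 and 9.89 in bru1 and at 8.59, 8.67 and 8.25 in Col. ndhK was at 9.47, 9.34 and 9.44 in bru1 and at 8.08, 8.19 and 7.78 in Col. No arrays overlapped, and the differences were 1.44 ± 0.25 (adjusted p = 9.7e-04) and 1.3998 ± 0.24 (adjusted p = 9.0e-04). ndhC, listed in the same unit, differed by 0.17 and was not called. atpA was higher by 1.38 ± 0.31 (adjusted p = 0.0068), psaI by 0.74 ± 0.17 and psbK by 0.71 ± 0.16. All 5 calls held in every fit that left out 1 array. With only the 2 groups compared in the fit, 2 of the 5 calls were lost and 1 other gene was called. Of all probe sets 4.4 percent were called in that fit. The median difference was 0.20, beside -0.016 for all probe sets, and the GAPDH 3' minus 5' difference was again higher in bru1, by 0.22 (exact permutation p = 0.1). That of actin went the other way, with bru1 minus Col at -0.16 (exact permutation p = 0.5).

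**Figure D4:**
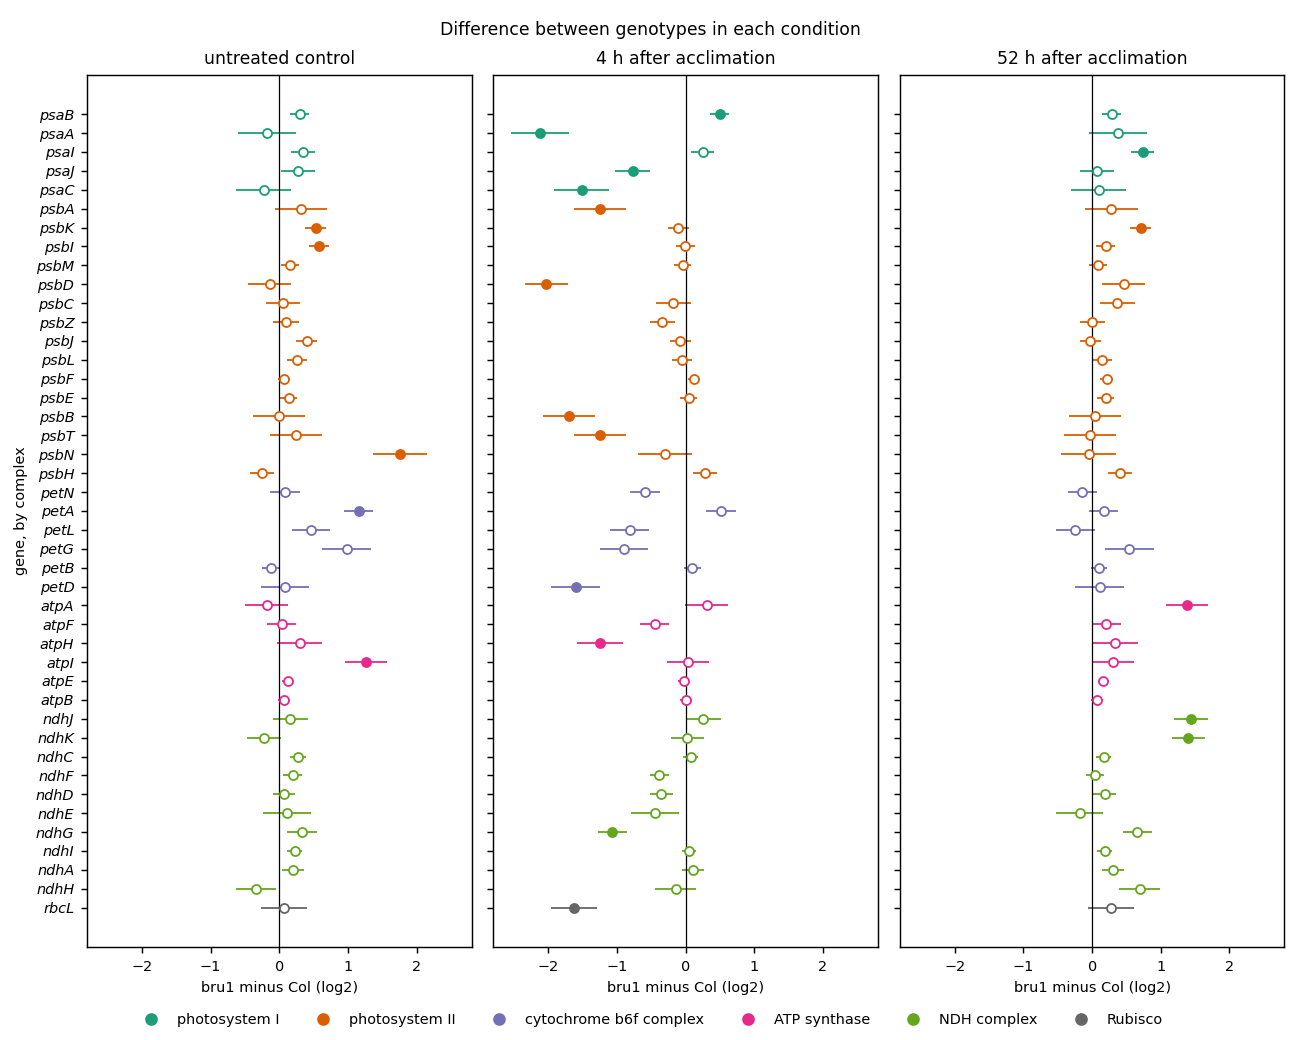
Difference of bru1 minus Col (log2, ± SE from limma) for the 43 genes in untreated seedlings, at 4 h and at 52 h, grouped by complex, with filled points past the adjusted p threshold of 0.05. Filled points lie above 0 in untreated seedlings and at 52 h (up to 1.76 for psbN and 1.44 for ndhJ) and, except for psaB, below 0 at 4 h (down to -2.12 for psaA).

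Nuclear genes for the same complexes were also followed. Of 21 nuclear genes on 4 lists for the photosystems, antennae, electron transport, ATP synthase, Rubisco and NDH, 1 rose and 9 fell in Col at 4 h and 2 rose and 10 fell in bru1, with medians of -0.26 and -0.23. Over all probe sets 36.4 percent were called in Col and 39.4 percent in bru1 at 4 h. In the photosystem II list of 6, LHCB4.3, for a minor antenna protein, fell by 1.80 ± 0.32 in Col and fell by 1.55 ± 0.32 in bru1, and LHCB4.2, of the same family, rose by 1.01 ± 0.18 in bru1. The list of 5 for electron transport, the ATP synthase and Rubisco had 1 called higher and 1 lower in Col, led by PRK, for the Calvin cycle enzyme phosphoribulokinase, at -0.63 ± 0.12. In the NDH list of 8, which holds subunits and assembly or RNA editing factors, 6 fell in Col and 7 in bru1, where CRR41 fell by 1.11 ± 0.20 in Col and CRR42 by 1.03 ± 0.19 in bru1. Neither of the 2 photosystem I genes was called. The plastid RNA and iron-sulphur assembly factors ATAB2 and HCF101 were not called in Col and fell in bru1, by 0.33 ± 0.087 and 0.44 ± 0.12. At 52 h the 21 genes had 3 called lower in Col and 1 higher in bru1, where 14.8 and 7.24 percent of all probe sets were called.

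The other measured plastid genes, for ribosomal proteins and the plastid RNA polymerase, mostly fell at 4 h in both genotypes. Of 19, 2 rose and 15 fell in Col (median -1.24), and none rose and 16 fell in bru1 (median -1.44), and none was called at 52 h in either. The shares of all probe sets called lower at 4 h were 18.2 percent in Col and 19.5 percent in bru1. Their largest falls were those of the ribosomal protein gene rps16 in Col (change -3.17) and rps18 in bru1 (change -3.37). Tissue markers were also followed, because the RNA came from whole seedlings. Of the 4 measured root markers, 3 fell at 4 h in Col and 4 in bru1, and their median level ranged from 6.47 to 6.68 in Col control, 5.03 to 5.71 in Col 4 h, 6.78 to 7.24 in bru1 control and 5.99 to 6.13 in bru1 4 h. Of 2 measured mesophyll markers, 1 fell in each genotype, with a median level of 11.93 to 12.01 in Col control, 11.52 to 11.62 in Col 4 h, 11.70 to 11.86 in bru1 control and 11.37 to 11.66 in bru1 4 h. No marker was at 0, and the part of tissue proportions in the plastid results was not tested.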

How the data were processed

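The values are the authors' deposited log2 expression values of 18 ATH1 arrays, for which the submitters' processing notes name RMA (no version given), a method that corrects background, normalises between arrays and summarises probes per probe set. The labels name biotin labelling by a standard Affymetrix protocol. Array medians lay between 6.48 and 6.55, so no further scaling was used. Precision is limited by the number of arrays. Probe sets were named from the platform table, and 13436 of 13513 with a single gene matched RefSeq TAIR10.1, used for names and gene order only. All 22746 probe sets other than the 64 AFFX controls were fitted with limma 3.58.1 in R 4.3.3, with a mean per group, all 18 arrays sharing one spread (12 residual degrees of freedom), empirical Bayes moderation and Benjamini-Hochberg adjustment over all probe sets at 0.05. Replicates are biological per the labels.

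Members and gene lists were chosen with earlier results of these data known. Values on every array are given, per complex, for the gene with the largest change at 4 h and at 52 h in each genotype, for the largest changes past the threshold in each interaction, and for psaA, psbA, psbB, petA, atpB, ndhF and rbcL; from other lists up to 2 genes with the largest change are named. psbC, psbD, ndhG, ndhJ, psaC, psaB and other genes with values beyond this rule were chosen after their values were seen. The procedure was tested on simulated data. Alternatives were a replicate block, quantile normalisation, median centring, a filter on low values, a variance trend with robust moderation, array weights, fits of only the groups compared, and leaving out each array.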

Additional observations from a re-analysis of the deposited data

Results flagged for a closer look

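The change between 4 h and 52 h differed between the genotypes by a test of the difference itself in the photosystem II gene psbD and the NDH gene ndhG. In Col both fell back after a rise at 4 h, and in bru1 neither was called at 4 h or between 4 h and 52 h. The interaction on the log2 scale was 2.50 ± 0.44 for psbD (adjusted p = 0.010) and 1.73 ± 0.30 for ndhG (adjusted p = 0.0096). In both, the 4 h level in Col replicate 2 was more than 2-fold below that of the other Col 4 h arrays, and without that array the interactions were 3.04 ± 0.26 and 2.09 ± 0.19. With only the 4 groups compared in the fit neither passed (adjusted p = 0.079 for psbD and 0.072 for ndhG). Groups of 3 arrays were not tested for single outlying samples.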

How the results depend on the processing

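No direction of a called result reversed under any alternative run. With array weights the genes called were 13 for Col at 52 h (5 higher), 20 for Col from 4 h to 52 h, 6 for bru1 at 52 h, 9 for bru1 against Col at 52 h, and 14, 5 and 17 for the interactions at 4 h, at 52 h and from 4 h to 52 h. Of all probe sets 33.7, 46.9, 15.5, 37.2, 3.4, 4.89 and 12.3 percent were called under these weights, in the same order. With only the groups compared in the fit they were 8 for Col at 52 h, 4 for bru1 at 52 h, 5 for bru1 against Col at 4 h, and 1, 2 and 0 for the 3 interactions, where 9.68, 6.93, 11.2, 0.998, 0.0615 and 0.237 percent of all probe sets were called. Median centring and the variance trend each left 0 genes for bru1 at 52 h, and the trend gave 1 for the interaction at 4 h. Of all probe sets 7.33, 6.83 and 0.361 percent were called there, in the same order. Leaving out 1 array gave 13 to 18 genes for Col at 4 h, 0 to 3 for Col at 52 h, 11 to 16 for Col from 4 h to 52 h, 16 to 19 for bru1 at 4 h, 0 to 2 for bru1 at 52 h, 12 to 17 for bru1 from 4 h to 52 h, 3 to 5 for bru1 against Col in the controls, 6 to 18 at 4 h and 5 to 5 at 52 h, and 0 to 12, 0 to 1 and 2 to 13 for the interactions at 4 h, at 52 h and from 4 h to 52 h. The percent of all probe sets called in these fits, in the same order, was as follows. For Col it was 31 to 32.4, 10.5 to 16.8 and 25.9 to 31.9, and for bru1 33.3 to 36.1, 3.71 to 8.06 and 32.3 to 34.9. For bru1 against Col it was 6.53 to 8.11, 7.54 to 14.6 and 6.81 to 15.1. For the interactions it was 0.0308 to 1.78, 0.0352 to 0.624 and 0.295 to 2.39. The median across these fits ranged from -0.33 to -0.040 for bru1 against Col at 4 h, from -0.58 to -0.32 for the interaction at 4 h and from 0.33 to 0.72 for that from 4 h to 52 h. The cause was not tested. The replicate number as a block gave 15 genes for Col at 4 h and 19 for bru1 at 4 h, within 1.5 times the counts without the block, as in the other comparisons. With the block 35 percent of all probe sets were called for Col at 4 h and 38 percent for bru1 at 4 h. Deviations of same-numbered arrays had a median correlation of -0.021 (45 pairs, 10 over 0.1) against 0.0035 for others (90 pairs), so the numbers were not taken to pair the arrays. Counting all probe sets of a gene changed nothing because each of the 43 genes had 1. Having 3 arrays per group limits every comparison, and low signals such as ndhF limit fold changes.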

Other observations

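The 8 genes whose mean level over all arrays was 12 or more (ndhA, ndhI, petB, psaB, psbF, psbM, atpB and atpE) changed little at 4 h, by -0.46 to 0.20 in Col and -0.53 to 0.16 in bru1. The 12 genes with a mean from 10 to 12 changed by -2.07 to 0.93 in Col and -2.51 to 0.033 in bru1. The 9 genes with a mean from 8 to 10 changed by -3.47 to 1.95 in Col and -2.98 to 0.060 in bru1. These means include the 4 h arrays, so a large change itself shifts the band of a gene. The lowest values of the 8 to 10 band are those of atpA, whose control means were 11.1 in Col and 10.92 in bru1. Whether strong signals near the upper end of the arrays (14.61 at the highest) narrow the measured changes was not tested.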
